A study of Homo sapiens with 15 samples.

Results

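The genes described here belong to 10 families of developmental transcription factors, FOX, SOX, NKX, TBX, LHX, GATA, IRX, DLX, PAX and the SIX-family homeobox genes, with the single gene WT1. They were chosen by symbol, as protein-coding genes whose name holds a family stem and a number, and 108 of the 14432 genes in the deposited tables met that rule. RefSeq holds 140 such symbols, and the other 32, SOX2, PAX8, FOXD1 and NKX2-1 among them, were not analysed here. FOX was the largest family with 38 genes, followed by SOX with 13, NKX with 11, TBX with 10, LHX with 7, and GATA, IRX and the SIX-family genes with 6 each. DLX and PAX had 5 genes each. FOXL2NB met the rule by its name alone, being the neighbour gene of FOXL2, and the 5 genes of the FOXD4 group are near-identical copies whose reads the counting could split.

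The 15 libraries were all made from HEK293T T-REx cells, an embryonic kidney line of human origin built to carry an inducible transgene. PHC1, a subunit of Polycomb repressive complex 1, was expressed from a transgene and captured on streptavidin beads, in 2 PAR-CLIP and 2 ChIP-seq libraries, and 2 further ChIP-seq libraries came from cells with the transgene PHC1-dFCS. All other libraries came from cells without a transgene: RNA polymerase II (RNAPII) PAR-CLIP with 4-thiouridine (4SU) or 6-thioguanosine (6SG), 1 library each, 2 libraries of total nuclear RNA, and single ChIP-seq libraries of H3K4me3, H3K27me3, EZH2, RNAPII and input. PAR-CLIP feeds cells a photoreactive nucleoside, so that light crosslinks RNA to the protein that holds it. For PHC1 it was 4SU, and the dose was 100 uM in all 4 PAR-CLIP libraries. Difference in protein and difference in transgene therefore cannot be told apart between PHC1 and the other libraries, and the labels do not say whether replicates came from separate cultures, so p-values measure the spread between these libraries only.

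Transcription factors of these families bind DNA through a forkhead, HMG box, T-box, paired, zinc finger or homeodomain fold and set cell identity in the embryo. WT1, PAX2, LHX1, SIX2, GATA3 and FOXC1 are known for their roles in the forming kidney and urinary tract. In many cells where they are silent, their promoters carry H3K27me3, which EZH2 places as the catalytic subunit of Polycomb repressive complex 2, and Polycomb repressive complex 1 can bind that mark. H3K4me3 marks the starts of active genes and is common at CpG-rich starts.

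Reads counted in genes came to 47187882 and 49626658 in the nuclear RNA libraries. The ChIP libraries ranged from 32.5M reads for RNAPII to 43.1M for H3K27me3 (M stands for 1000000), and the median transcription start site (TSS) had 146 H3K4me3 reads, 34 RNAPII reads, 22 input reads, 20 EZH2 reads and 18 H3K27me3 reads. Every gene of the table had at least 10 reads in each of these 5 ChIP libraries. PAR-CLIP gave 696186 and 698056 clusters for PHC1, 667937 for RNAPII with 4SU and 45259 with 6SG. Of 5 markers of kidney tubule none reached 1 count per M (CPM), with summed levels of 0.254 and 0.443 CPM and none listed at 0 in both libraries. Of 6 neuronal markers 3 reached it, led by the neurofilament gene NEFL at 141 and 142 CPM, and ELAVL3, NEFM and STMN2 did not. Of 3 podocyte markers 2 reached it, PODXL at 79.1 and 79.2 CPM and SYNPO at 3.37 and 3.34. NPHS1 did not, at 0.318 and 0.282 CPM.

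Stretches before the RefSeq start of 7 members are shown first, chosen so that the H3K4me3 levels given below span their whole range. H3K4me3 was read at the start tabulated on hg19. Whether that start and the RefSeq start are the same was not checked, so the mark need not lie beside the printed bases. Each line gives the 250 bases before the RefSeq start (GRCh38.p14), 5′ to 3′ on the gene's strand, with every CG in capitals. GATA6, PAX2 and FOXD3 had the 3 highest H3K4me3 levels over input among the 73 members with a sequence, and LHX3, FOXN1 and FOXR2 the 3 lowest. WT1 was added as the kidney gene, and the choice was made after the values were seen.
GATA6 (chr18:22169339-22169588, plus strand): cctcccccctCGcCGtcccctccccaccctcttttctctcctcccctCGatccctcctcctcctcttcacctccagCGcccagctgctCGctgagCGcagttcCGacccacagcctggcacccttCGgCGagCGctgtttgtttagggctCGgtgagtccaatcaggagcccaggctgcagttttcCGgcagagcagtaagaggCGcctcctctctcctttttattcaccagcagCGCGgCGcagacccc
PAX2 (chr10:100735146-100735395, plus strand): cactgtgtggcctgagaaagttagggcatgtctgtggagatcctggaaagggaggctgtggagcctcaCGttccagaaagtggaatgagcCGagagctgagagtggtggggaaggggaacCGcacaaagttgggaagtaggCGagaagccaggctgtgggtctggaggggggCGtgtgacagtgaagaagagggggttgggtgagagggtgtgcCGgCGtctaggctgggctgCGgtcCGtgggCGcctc
FOXD3 (chr1:63322317-63322566, plus strand): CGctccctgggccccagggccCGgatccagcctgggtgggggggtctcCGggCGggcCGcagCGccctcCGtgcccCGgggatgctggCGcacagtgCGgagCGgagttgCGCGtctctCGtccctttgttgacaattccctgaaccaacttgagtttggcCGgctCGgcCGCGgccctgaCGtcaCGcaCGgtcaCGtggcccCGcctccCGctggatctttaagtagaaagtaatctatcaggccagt
WT1 (chr11:32435540-32435789, minus strand): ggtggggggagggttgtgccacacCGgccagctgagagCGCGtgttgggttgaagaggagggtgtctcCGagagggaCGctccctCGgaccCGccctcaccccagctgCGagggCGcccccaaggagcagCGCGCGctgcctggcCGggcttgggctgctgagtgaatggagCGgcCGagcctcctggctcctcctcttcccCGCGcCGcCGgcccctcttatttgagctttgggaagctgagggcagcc
LHX3 (chr9:136205129-136205378, minus strand): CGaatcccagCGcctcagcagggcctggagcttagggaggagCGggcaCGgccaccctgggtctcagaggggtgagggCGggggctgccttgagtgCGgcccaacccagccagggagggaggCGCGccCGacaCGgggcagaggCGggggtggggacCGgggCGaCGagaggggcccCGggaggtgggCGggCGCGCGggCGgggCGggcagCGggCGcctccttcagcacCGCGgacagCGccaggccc
FOXN1 (chr17:28506098-28506347, plus strand): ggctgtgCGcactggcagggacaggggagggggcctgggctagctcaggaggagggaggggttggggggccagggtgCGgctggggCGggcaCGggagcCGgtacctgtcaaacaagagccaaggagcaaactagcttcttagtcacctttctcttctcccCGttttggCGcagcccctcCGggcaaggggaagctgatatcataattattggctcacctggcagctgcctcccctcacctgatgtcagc
FOXR2 (chrX:55623150-55623399, plus strand): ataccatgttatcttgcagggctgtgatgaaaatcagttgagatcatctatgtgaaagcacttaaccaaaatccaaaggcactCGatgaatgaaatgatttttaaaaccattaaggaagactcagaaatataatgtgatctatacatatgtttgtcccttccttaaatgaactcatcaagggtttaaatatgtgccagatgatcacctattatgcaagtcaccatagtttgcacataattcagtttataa
The 7 stretches held 16, 10, 24, 19, 26, 8 and 1 CG, in the order printed. LHX3 thus had the most CG of the 7 and the lowest H3K4me3 of all members.

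A broad part of these families was transcribed in the line. Of the 108 genes, 70 reached 1 CPM in both nuclear RNA libraries, 64.8% against 69.8% of all genes in the tables. At higher levels the members thinned out: 49 reached 5 CPM (45.4%, all genes 59.5%) and 34 reached 10 CPM (31.5%, all genes 54.2%). The members' regions were short, with a median of 5.29 kb against 23.8 kb for all genes, and CPM does not correct for length. Per kilobase of gene region and M reads (RPKM), the median was 0.517 for members and 0.568 for all genes.

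**Figure D1:**
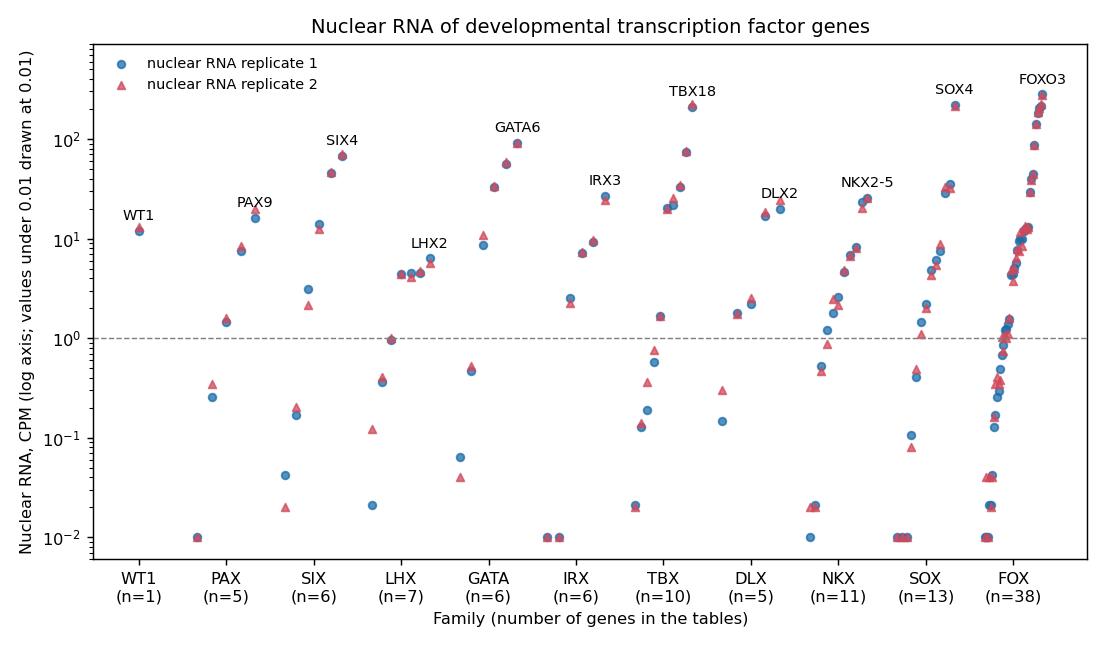
Nuclear RNA of the 108 genes by family, in CPM on a log axis, with 1 point per library and the highest gene of each family named. FOXO3, SOX4 and TBX18 lie above 200 CPM in both libraries, the dashed line marks 1 CPM, and each family but WT1 has genes on both sides of it.

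The forkhead genes with the most RNA were mostly those active in many tissues. FOXO3, a factor of stress resistance and cell survival, had 280 and 277 CPM, FOXJ3 215 and 226, FOXK2 204 and 203, and FOXK1 143 and 140. FOXO3 lay above all other members in both libraries, while FOXJ3, SOX4 and TBX18 overlapped. FOXK1 and FOXK2 repress autophagy genes and act on metabolism. FOXN2 had 86.7 and 87.8 CPM, FOXJ2 12.9 and 12.5, and FOXO4 11.8 and 12.6, so all 7 of the broadly expressed forkhead genes in the tables were above 1 CPM in both libraries. Reads of FOXO3 are uncertain to the extent that its near-identical pseudogene copy shares them.

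Outside the broad forkhead genes SOX4, a SOXC factor of progenitor cells, had 219 and 213 CPM, and TBX18, a T-box gene of the ureter mesenchyme, 209 and 223 CPM. Their values overlapped and lay above those of the remaining members. FOXC1, a forkhead gene of the mesoderm, had 181 and 186 CPM. SOX4 and FOXC1 have short gene regions and led all members per length of region, with 44.9 and 43.6 RPKM for SOX4 and 52.3 and 53.9 RPKM for FOXC1. TBX18, over 76876 bases, had 2.81 ± 0.126 RPKM (SD, n = 2), so its place near them in CPM is not one in level per length of region. Whether reads were counted in exons alone is not given in the sources used here, so RPKM need not be the level per length of transcript.

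The kidney regulators covered a wide range. SIX4 had 67.9 and 70.2 CPM. WT1, needed in nephron progenitors and podocytes, had 12.0 and 13.0 CPM, GATA3, a factor of the nephric duct, 8.58 and 10.8, and PAX2, an early gene of the renal lineage, 7.42 and 8.36. In the order of all members the values of WT1 overlapped those of FOXJ2 and FOXO4, those of GATA3 overlapped IRX5, and those of PAX2 overlapped FOXQ1. LHX1 had 4.47 and 4.09 CPM and SIX2, the marker of self-renewing nephron progenitors, 3.12 and 2.14.

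GATA6, a factor of mesoderm and endoderm, had 91.7 and 90.9 CPM, TBX3 73.9 and 76.6, GATA4 55.6 and 59.3, TBX2 32.6 and 34.4, GATA2 32.6 and 34.0 and NKX2-5, the homeobox gene of the heart field, 25.4 and 25.8. Of factors known from the nervous system, DLX2 had 19.8 and 24.2 CPM, DLX1 16.7 and 18.4, NKX6-1 6.87 and 6.65 and SOX9 7.54 and 8.77. IRX3 had 26.7 and 24.4 CPM and IRX5 9.24 and 9.71, while SOX12 had 28.7 and 32.8.

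Other members gave little or no RNA. FOXC2, the paralogue of FOXC1, had 0.297 and 0.343 CPM. No read was counted in either library for 8 genes, FOXI2, FOXR2, IRX1, IRX2, PAX4, SOX11, SOX14 and SOX17. Within the SOXC group of SOX4, SOX11 and SOX12, SOX11 was thus at 0 beside high SOX4, and within the Iroquois genes IRX1 and IRX2 were at 0 beside IRX3 and IRX5. Every family had members above 1 CPM, with 3 of 5 PAX, 4 of 5 DLX, 25 of 38 FOX, 8 of 13 SOX, 7 of 11 NKX, 6 of 10 TBX and 4 of 7 LHX genes, and 4 of 6 in each of GATA, IRX and the SIX-family genes. Of the FOXD4 group 4 genes were above it, at 1.01 to 6.35 CPM, values that its shared sequence makes uncertain.

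Genes that work with these factors were present as well. Of 17 cofactors listed, 12 were in the tables and all 12 were above 1 CPM in both libraries, among them DACH1 (696 and 722 CPM), which acts with EYA proteins, EYA4 (508 and 500 CPM), the GATA cofactor ZFPM2 (357 and 356 CPM) and the co-repressor TLE4 (196 and 196 CPM). Of 16 other nephron regulators 14 were in the tables and 12 were above 1 CPM, led by TFCP2L1 (36.0 and 37.2 CPM) and SALL1 (24.9 and 28.5 CPM).

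The active members carried H3K4me3 at their starts. ChIP values are reads per 10M over those of the input, with 1 read per 10M added to both, and 64 of the 108 genes stood at 2 times the input or more (59.3%, all genes 61.9%). For RNAPII 38 did (35.2%, all genes 43.8%), each of them among the 70 members at 1 CPM or more (54.3% of these, all such genes 61.7%). With 1 library per target there is no replicate check, and intervals below are exact 95% intervals for the ratio of reads without the added read, which cover counting error only. Among the 70 members at 1 CPM or more, 58 had H3K4me3 at 2 times the input (82.9%, all genes 84.9%), and among the 38 others 6 did (15.8%, all genes 8.89%).

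GATA6 had the highest H3K4me3, at 17.2 times the input, from 336 reads against 14 in the input (ratio 21.7, 12.7 to 40.0). PAX2 followed at 15.7, from 377 against 18 reads, although its RNA was 7.42 and 8.36 CPM. FOXD3, a neural crest and pluripotency factor with 9.90 and 8.40 CPM, stood at 14.3, and TBX18 and FOXC1 at 13.3 each. The intervals of these 5 genes overlap, so their order is not resolved. WT1 was lower, at 6.07, from 163 against 21 reads (ratio 7.00, 4.43 to 11.6). RNAPII was highest at GATA6 (5.35), FOXC1 (5.19), SOX4 (5.12) and DLX2 (5.11).

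**Figure D2:**
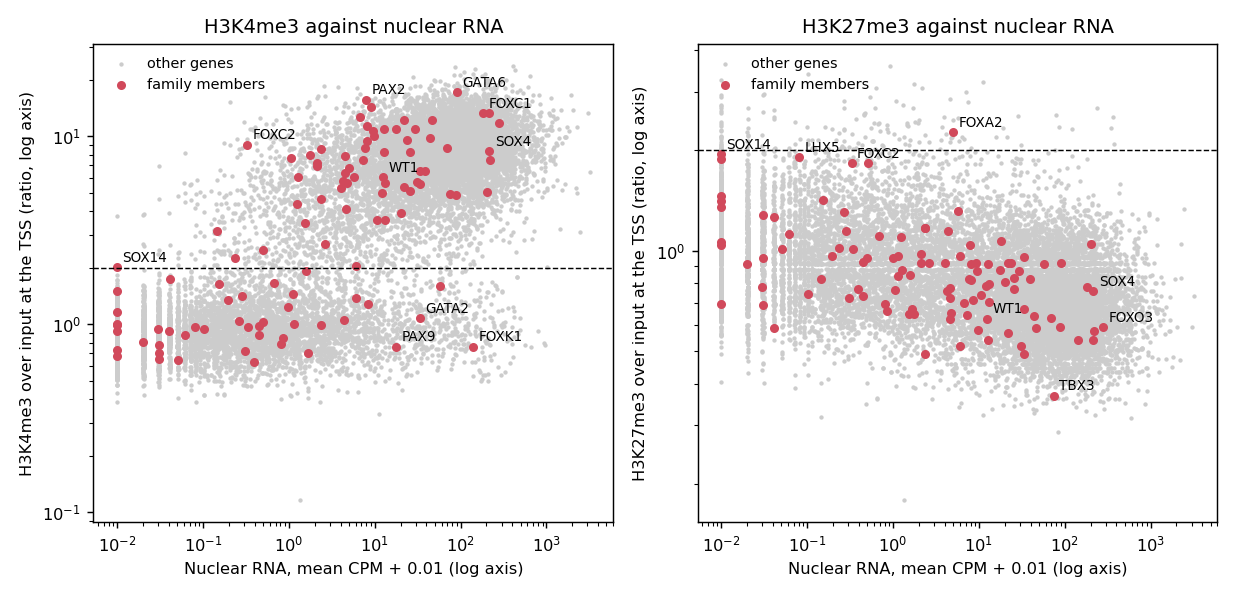
H3K4me3 (left) and H3K27me3 (right) over input at the TSS against mean nuclear RNA plus 0.01 CPM, on log axes, with members in red and other genes in grey. H3K4me3 separates into a high and a low group, with FOXK1, PAX9 and GATA2 in the low group despite their RNA and FOXC2 in the high group without it, and in H3K27me3 FOXA2 alone of the members lies above the dashed line at 2 times the input.

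In 12 members RNA and H3K4me3 at the tabulated start went apart, with RNA of at least 1 CPM and H3K4me3 under 2 times the input. FOXK1 was the most abundant of them, with 143 and 140 CPM and 20 H3K4me3 reads against 25 in the input (ratio 0.722, 0.380 to 1.35). GATA4 stood at 1.59, GATA2 at 1.08 and PAX9 at 0.761, all above 16 CPM in both libraries. Another 4 of the 12 were FOXD4, FOXD4L1, FOXD4L3 and FOXD4L6, near-identical copies whose RNA and ChIP reads are both uncertain. The table gives 1 start per gene, and whether any of the 12 genes starts elsewhere was not tested. The 6 members under 1 CPM with H3K4me3 at 2 times the input were FOXC2 (9.05), NKX2-8 (7.65), TBX21 (3.12), NKX6-2 (2.50), DLX3 (2.24) and SOX14 (2.02). FOXC2 had 185 H3K4me3 reads against 15 (ratio 11.1, 6.57 to 20.3), with 0.297 and 0.343 CPM. NKX2-8 had 198 against 20, and its RNA was near the limit at 1.21 and 0.866 CPM.

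The repressive mark was low at most members. FOXA2, a pioneer factor of endoderm, was the 1 member of 108 with H3K27me3 at 2 times the input or more (0.926%, all genes 1.04%), at 2.27, from 56 reads against 20 (ratio 2.52, 1.49 to 4.43). Just below that level were SOX14 at 1.95, LHX5 at 1.91, PAX4 at 1.89, and NKX6-2 and FOXC2 at 1.83 each, and then SOX17 at 1.46 and FOXB2 at 1.42. At the other end TBX3 had 12 reads against 36 (ratio 0.300, 0.142 to 0.590). SOX14 and PAX4 gave no RNA read, LHX5 had 0.0212 and 0.121 CPM, and FOXA2 had 5.06 and 5.02 CPM. At the median, H3K27me3 over input was 1.01 in the 38 members under 1 CPM and 0.789 in the 70 others, beside 0.948 and 0.734 in all genes.

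FOXC2, FOXA2, NKX6-2 and SOX14 had both marks, each at 1.5 times the input or more. Those 4 were 3.70% of members, against 1.72% of all genes. At FOXC2 the H3K4me3 level was 9.05 and at FOXA2 6.78, while NKX6-2 stood at 2.50 and SOX14 at 2.02. The input of these 4 genes was 11 to 20 reads, and the 2 marks were measured on bulk chromatin, where marks on the same allele and on different alleles or cells cannot be told apart.

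EZH2 and PHC1 showed no member at 2 times the input or more, with 0.825% and 0.125% of all genes there. EZH2 was highest at SOX13 (1.70), FOXC1 (1.64), IRX1 (1.58), LHX5 (1.56) and SIX6 (1.54). Only the interval of SOX13 lay above 1 among all 108 members (ratio 1.84, 1.01 to 3.45). These intervals carry no correction for the number of members, and H3K27me3 at SOX13 stood at 0.956. The EZH2 median was 1.04 in members and 0.998 in all genes, and 7 members lay in the highest 10.1% of its deposited scores, beside 12 in the highest 10% for H3K27me3 and 6 for PHC1. PHC1 was highest at TBX10, which had 2.00 after rounding, SOX14 (1.67), SOX18 (1.47), LHX5 (1.42) and NKX2-2 (1.41), with a median of 1.04 in members and 1.01 in all genes. The PHC1 columns are the authors' values for both replicates joined, so no SD can be given, and these ratios assume that the input was subtracted as in the other columns. The transgene PHC1-dFCS, named for a missing FCS zinc finger, had FOXK2 at 2.29 as its 1 member at 2 times the input or more (0.926%, all genes 1.12%), where PHC1 stood at 1.24, from 11 input reads. The median ratio of PHC1-dFCS over PHC1 was 1.16 both in members and in all genes.

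LHX5 and SOX14 ranked among the 5 highest members for PHC1 and the 3 highest for H3K27me3, but under 2 times the input in both. Across the 108 genes, Spearman's rho of PHC1 with H3K27me3 was 0.528 and of EZH2 with H3K27me3 0.512, beside 0.523 and 0.587 across all genes. All these ratios divide by the same input reads, which alone ties them together, so the values are descriptions. With nuclear RNA, rho was 0.663 for H3K4me3, 0.699 for RNAPII and -0.495 for H3K27me3 (all genes 0.720, 0.689 and -0.423).

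Members with little H3K4me3 had more CG in their promoters at the median than other such genes. In the 33 members under 2 times the input, the 250 bases before the start held a median of 16 CG (quartiles 9 and 25), against 5 (2 and 12) in the 3796 genes of the tables below that level. In genes with H3K4me3 the medians were close, 22.5 in 40 members and 22 in 7173 genes. LHX3, FOXN1 and FOXR2, printed above, span that spread with 26, 8 and 1 CG. The letters GGGCGG, the core of the GC box, occurred on either strand in 54.5% of members without H3K4me3 and in 30.7% of all genes without it. The letters TATAAA occurred in 6.85% of members and 8.51% of all genes, and of the 7 promoters shown in FOXR2 alone. These counts describe the window before the RefSeq start, which need not be the start where H3K4me3 was read, and carry no test.

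PHC1 clusters were found at a smaller share of members than of all genes. Of the 108, 43 had at least 1 PHC1 cluster within the gene region in both libraries (39.8%, all genes 71%), and of the 70 at 1 CPM or more, 38 did (54.3%, all genes 88.5%). A further 13 of the 70 had a cluster in 1 library, and 19, LHX1, SIX2, FOXD3 and NKX2-4 among them, had none. RNAPII with 4SU gave a cluster at 59 of the 70 (84.3%, all genes 95.2%). Length and RNA level moved with this share. Among genes at 1 CPM or more, members under 5 kb had PHC1 clusters in both libraries at 10 of 32 (31.2%, all genes 62.5%), those of 5 to 20 kb at 8 of 15 (53.3%, all genes 82.7%), those of 20 to 60 kb at 11 of 14 (78.6%, all genes 92.3%), and those of 60 kb or more at 9 of 9 (all genes 97.5%). By RNA level, 3 of 21 members at 1 to 5 CPM had them (14.3%, all genes 58.9%), and all 7 at 100 CPM or more did (all genes 99.9%). The part of length and RNA level together was not tested.

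The 4 members with the most clusters were forkhead genes with long regions, of 84890 to 159339 bases against a member median of 5.29 kb. Cluster numbers and summed coverage here are not corrected for length. In short regions SOX4 held 26 and 18 PHC1 clusters over 4878 bases, and FOXC1 14 and 18 over 3449 bases. FOXK2 (chr17:80477594-80562483, hg19) held 269 and 276 PHC1 clusters, FOXO3 (chr6:108881026-109005971) 226 and 221, FOXJ3 (chr1:42642210-42801548) 215 and 207, and FOXK1 (chr7:4683388-4811074) 140 and 126. All members together had 1218 and 1171. In summed coverage, FOXK2 took 31.9% and 33.6% of the members' total in replicates 1 and 2, FOXJ3 18.9% and 17.9%, FOXO3 14.2% and 14.8%, and FOXK1 13.9% and 11.8%. Of the replicate 1 clusters in members 67.2% met a replicate 2 cluster, and 74.0% the other way (clusters in all genes 67.2% and 70.8%), and 29.6% and 30.7% met an RNAPII 4SU cluster (all genes 30.7% and 29.3%).

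At single sites, coverage was deepest within FOXJ3 at chr1:42779389-42779420 (hg19), with a mean of 1150 reads per base in replicate 1 and 619 in replicate 2. That cluster lay on the plus strand, whereas FOXJ3 is on the minus strand. FOXK2 had its deepest cluster at chr17:80531358-80531442, on its own strand, with mean coverage of 407 and 866. Of PHC1 clusters in members of known strand, 95% and 95.1% lay on the gene's own strand, and 3.6% and 2.2% within 1 kb of its start. For RNAPII the share within 1 kb was 10.3% with 4SU and 20.9% with 6SG, and in all genes these 4 shares were 2.4%, 1.8%, 5.7% and 9.8%.

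**Figure D3:**
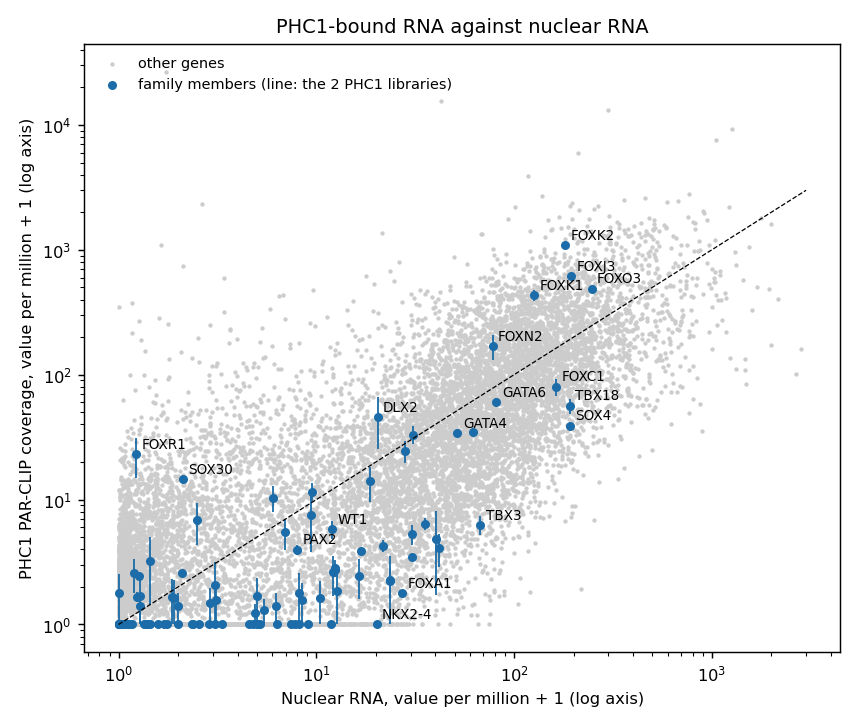
PHC1 PAR-CLIP coverage against nuclear RNA per gene, both as values per M plus 1 on log axes, with members in blue, a line joining the 2 PHC1 libraries, and other genes in grey. FOXK2, FOXK1, FOXJ3, FOXO3 and FOXN2 lie above the dashed line of equal values, and SOX4, TBX18, FOXC1 and most other members with RNA lie below it.

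Relative to nuclear RNA, PHC1-bound RNA was high at 5 of the 7 broadly expressed forkhead genes and low at SOX4, TBX18 and FOXC1. Of all tested genes 35.5% were higher and 47.1% lower in the same test. At 60 kb or more, where these 5 forkhead genes and TBX18 lie, 1418 of 3158 tested genes were higher and 1152 lower. Under 5 kb, where SOX4 and FOXC1 lie, 565 of 724 were lower, and the median log2 fold was -2.42. The list of broad forkhead genes was chosen with earlier results of these data known, so the count on it is a description. FOXJ2 and FOXO4, the rest of that list, entered the test through RNA alone, as given below. FOXK2 had PHC1 values of 1081 and 1107 per M against 181 and 179 in RNA, a log2 fold of 2.60 ± 0.0508 (SE, limma adjusted p = 0.000137). FOXK1 had 472 and 390 against 126 and 123 (1.77 ± 0.113, limma adjusted p = 0.000393). FOXJ3 had 640 and 589 against 190 and 199 (1.66 ± 0.0698, limma adjusted p = 0.000172). In all 3 the PHC1 and RNA values did not overlap. FOXO3, with 483 and 488 against 248 and 244, was higher by a log2 fold of 0.98, and FOXN2, with 129 and 206 against 76.6 and 77.3, by 1.07. The FOXN2 call (limma adjusted p = 0.0172) was lost with library totals alone, where its log2 fold was 0.71.

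SOX4 was lowest among the members with at least 5 per M in both kinds of library, with PHC1 values of 41.1 and 34.9 per M against 194 and 187 in RNA, a log2 fold of -2.30 ± 0.108 (limma adjusted p = 0.000205). TBX18 had 47.9 and 62.8 against 185 and 196 (-1.78 ± 0.154, limma adjusted p = 0.00089). FOXC1 had 91.9 and 67.0 against 160 and 164 (-1.03 ± 0.172, limma adjusted p = 0.00632). PHC1 values lay below the RNA values in both libraries of all 3. SIX4 (-0.82), GATA4 (-0.60) and GATA6 (-0.44) were lower too, but GATA6 stood at 0.03 and 0.10 on cluster numbers with edgeR and DESeq2, and GATA4 passed neither of those tests (-0.19 and -0.12). The calls of both were also lost without RNA replicate 1 and without RNA replicate 2.

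The test covered 9362 genes, of which PHC1 exceeded RNA at 35.5% and fell short of it at 47.1%. Among members 49 were tested, with 7 higher and 34 lower, but the filter shaped that count, and with no filter 8 were higher and 60 lower (all genes 29.4% and 40.5%). Without RNA replicate 1, or without replicate 2, only 26 members reached the filter. Their median log2 fold was -0.4 and -0.43, in that order, beside -0.04 and -0.03 for all genes tested so. The 16 members that passed in both groups had 5 higher and 6 lower (all genes passing so 35.4% and 43.2%), which is near the background, and DLX2, GATA3, SOX12, SOX13 and TBX1 were not called. A further 30 passed through RNA alone and were thus low in PHC1 by selection, with 28 lower (all genes 91.6%), 3 passed through PHC1 alone, with 2 higher (all genes 98%), and 59 were not tested.

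Members that passed through RNA alone are therefore given by their values. FOXA1, a pioneer factor of endoderm and hormone-dependent tissue, had 0.871 and 0.676 per M in PHC1 against 26.2 and 26.1 in RNA. TBX3 had 4.16 and 6.35 against 65.3 and 67.4. NKX2-5 had 2.51 and 0 against 22.4 and 22.7. Their log2 folds were -3.94, -3.45 and -3.65, in that order, and those of IRX3 and FOXN4 were -3.46 and -3.43. In FOXN4 the PHC1 libraries were far apart, at 7.03 and 0.728. WT1 had 5.80 and 3.85 against 10.6 and 11.5 (-1.07), and PAX2 2.61 and 3.34 against 6.55 and 7.36 (-1.01), yet on cluster numbers with DESeq2 WT1 stood at 0.04 and PAX2 at -0.29, neither called, and the WT1 call was lost without either RNA library. Of the members that passed through RNA alone, 7 were at 0 in both PHC1 libraries and get no fold, NKX2-4, FOXO4, FOXD3, FOXQ1, IRX6 and LHX2 among them, with NKX2-4 at 20.4 and 17.9 per M in RNA.

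Length moved with the fold over all tested genes. Their median log2 fold was -2.42 under 5 kb, -0.97 from 5 to 20 kb, -0.08 from 20 to 60 kb and 0.15 at 60 kb or more. Of the 10 members of 60 kb or more, 5 were FOXK2, FOXJ3, FOXO3, FOXK1 and FOXN2, and the others were GATA4, PAX2, PAX7, TBX15 and TBX18. TBX18, of 76876 bases, stood at a log2 fold of -1.78 and was lower, while FOXN2, of 64640 bases, was higher at 1.07. The other broad forkhead genes, FOXJ2 and FOXO4, measured 22760 and 7386 bases and passed the filter through RNA alone, low in PHC1 by selection. FOXJ2 had 2.56 and 0.701 per M in PHC1 against 11.4 and 11.0 in RNA, and FOXO4 was at 0 in both PHC1 libraries. The parts of length and of family role in the fold were not tested.

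FOXR1 and SOX30, the latter a gene of male germ cells, passed the filter through PHC1 alone, so that being higher there was set by the selection and only their values are given. FOXR1 had 13.9 and 30.0 per M in PHC1 against 0.150 and 0.302 in RNA, and its log2 fold of 4.14 rested on 14 and 19 clusters. All of these lay on the strand opposite to FOXR1, so that none remained when clusters were restricted to the gene's own strand. SOX30 had 13.8 and 13.3 against 1.27 and 0.976 (2.78), with 2 of 5 and 1 of 4 clusters on its own strand. Of the 38 members under 1 CPM, 5 had a PHC1 cluster in both libraries (13.2%, all genes under 1 CPM 30.6%), namely FOXR1, DLX3, GATA1, PAX7 and TBX4. All PHC1 clusters of GATA1 and TBX4 also lay on the strand opposite to the gene, as did the replicate 1 cluster of PAX7. The strand of DLX3 was not known.

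Of 11 cofactors tested 3 were higher and 5 lower in PHC1 relative to RNA (all tested genes 35.5% and 47.1%), EYA4 at 1.02 and TLE1 at 0.60 among the first and DACH1 at -2.63 and LMO4 at -1.27 among the second. Of 10 nephron regulators tested 3 were higher and 5 lower, and of 16 Polycomb subunits 6 were higher and 7 lower. The medians of the 3 lists were -0.64, -1.71 and -0.43, beside -0.33 for all tested genes. These counts and medians include genes whose direction was set by the filter. EMX1 and CBX8, with 0 PHC1 clusters in both libraries, passed through RNA alone. ESRRG, at 0.360 and 0.363 CPM, passed through PHC1 alone. The routes were not counted apart for these lists.

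**Figure D4:**
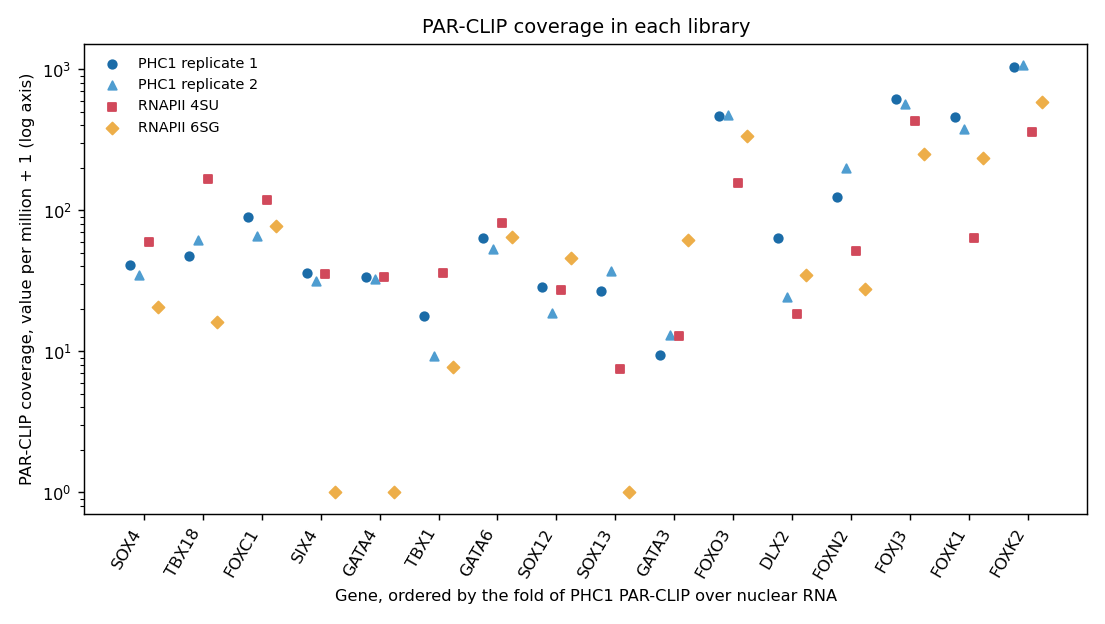
PAR-CLIP coverage of the 16 members that passed the filter in both groups, as values per M plus 1 on a log axis, in each PHC1 and RNAPII library. DLX2 stood at 62.5 and 23.4 per M in the PHC1 replicates and TBX1 at 16.8 and 8.22, and SIX4, GATA4 and SOX13 are at 0 with 6SG.

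RNAPII PAR-CLIP asks whether PHC1 held these RNAs differently from the polymerase. With both RNAPII libraries as control limma called 0 of 8435 genes and 0 of the 31 members tested in either direction, while at an unadjusted p under 0.05 14.2% of all genes were higher and 7.68% lower, and 4 and 5 members. On cluster numbers edgeR called 6 of 42 members higher and 11 lower, beside 1485 and 1218 of 9567 genes. DESeq2 called 0 and 0 members, beside 4 and 3 of all genes. The values, scaled over PAR-CLIP libraries alone, show how far the controls were apart. FOXK1 had 62.2 per M with 4SU and 233 with 6SG, TBX18 166 and 15.2, and GATA3 11.8 and 61.0. Of the 31 members 7 were at 0 with 6SG.

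Against the 4SU library alone, which shares the PHC1 nucleoside but has no replicate, limma called 9 of 24 members higher (all genes 33.7%) and 4 lower (all genes 28%), assuming that a lone library varies like the PHC1 pair. FOXK1 was higher by a log2 fold of 2.71, FOXK2 by 1.56, FOXO3 by 1.58, FOXN2 by 1.62 and FOXJ3 by 0.46. SOX13 was higher by 2.06. The other 3 of the 9, FOXR1, SOX30 and SOX8, had at most 1.34 per M in the 4SU library and passed the filter through PHC1 alone, which set their direction. TBX3 (-2.62), TBX18 (-1.64), TBX1 (-1.49) and FOXC1 (-0.63) were lower. SIX4 (-0.07), GATA4 (-0.04), GATA6 (-0.49) and SOX4 (-0.66) were not called, although they were called lower against RNA. Both comparisons use the same PHC1 libraries, and whether they differ was not tested.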

How the data were processed

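The authors' deposited RNA table holds counts, whole reads per gene, and their deposited ChIP table a score per gene, the reads at the TSS per 10M (M, 1000000) minus the same for the input. The authors' deposited PAR-CLIP files hold a signal, the mean read coverage of each cluster, called per library. Per the submitters' processing notes, reads were mapped to hg19 with Bowtie 0.12.7 (PAR-CLIP), TopHat2 2.0.11 (RNA) and Bowtie2 2.2.3 (ChIP). The cluster caller, the read counter, its use of strand and the TSS window are not given in the sources used here. The members and lists were chosen with earlier results of these data known.

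Scores of EZH2, H3K27me3, H3K4me3 and RNAPII were turned back into whole reads for all 14432 genes, within 1e-06 reads. Of the value columns, 1 was not used. The design had foreseen replicate counts for ChIP, and the scores allowed ratios only. Symbols, strands (73 of 108 members) and promoters came from RefSeq, GRCh38.p14, whose positions apply to promoters alone.

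Clusters were given to gene regions of the ChIP table by their midpoint, on either strand. Summed coverage and RNA counts were scaled per M with TMM factors (edgeR 4.0.16) and compared with limma 3.58.1 on log2(value + 1), for genes at 5 per M or more in at least 2 libraries, which understates folds of low genes. P-values are two-sided, with Benjamini-Hochberg adjustment over all genes tested and a threshold of 0.05. The procedure was tested on simulated data. Named genes were a fixed kidney and neural set, the 8 members highest in RNA, the 8 highest in H3K27me3, the 5 highest in EZH2, PHC1 and H3K4me3, and the 6 largest folds each way. The alternatives tried were other scalings, pseudocounts, filters, strands, tools (DESeq2 1.42.0), thresholds and left-out libraries. Some members are not reported here by name.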

Additional observations from a re-analysis of the deposited data

How the results depend on the processing

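PHC1 against nuclear RNA gave 7 members higher and 34 lower. With no filter 60 were lower. Leaving out 1 library at a time gave 8 to 39 members lower and, over all genes, 2779 to 5097, with 8 members without RNA replicate 1 and 8 without RNA replicate 2, where only 26 members reached the filter. On cluster numbers GATA6 turned from -0.44 to 0.03 (edgeR) and 0.10 (DESeq2), and WT1 from -1.07 to 0.04 (DESeq2). A lone library was assumed to vary like the others.

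With the replicate block 7 members were higher and 34 lower, and 3255 and 4423 of all genes. Over genes, the deviations of same-numbered PHC1 and RNA libraries correlated at 0.0362, from 2 pairs. That value cannot show whether same-numbered libraries shared a culture. Between PHC1 and RNAPII no block was fitted, since each RNAPII library stands alone.

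PHC1 against RNAPII gave no call with both controls. On cluster numbers edgeR called 6 of 42 members higher and 11 lower, with 1485 and 1218 of 9567 genes, and DESeq2 4 and 3 of all genes. The 4SU library alone gave 9 and 4 members, with 2707 and 2248 of all genes. Leaving out 1 library gave 0 to 12 members higher and 0 to 4 lower, and 0 to 4333 and 0 to 2248 of all genes, with the 12 and 4333 without the 4SU library.

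Of ChIP counts at 2 times the input, H3K27me3 (1 member) became 6 at 1.5 times, 0 at 3 times, 3 with a pseudocount of 0.5 and 0 with 3. EZH2 became 5 at 1.5 times. PHC1 became 2 at 1.5 times and 1 with a pseudocount of 0.5. PHC1-dFCS (1) became 16 at 1.5 times, 0 at 3 times and 0 with a pseudocount of 3. RNAPII became 23 at 3 times. The same counts over all genes are not given, so these show only how far the member counts depend on the setting. By the highest 10% of the score the members were 4 for H3K4me3, 5 for RNAPII, 12 for H3K27me3, 7 for EZH2, 6 for PHC1 and 9 for PHC1-dFCS. With at least 5 PHC1 clusters in both libraries 18 members remained of 43. Few reads per TSS limit single values of EZH2, H3K27me3 and PHC1.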
